A study of Canis lupus familiaris with 16 samples.

Results

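The WNT ligands, receptors and inhibitors were examined in canine soft tissue sarcomas. The genes were chosen by symbol alone, as the WNT ligands, the frizzled receptors (FZD), the coreceptors *LRP5* and *LRP6*, the receptors *ROR1* and *ROR2*, the R-spondins (RSPO), the secreted inhibitors (SFRP, DKK and *WIF1*), and *AXIN2*, *LEF1* and *TCF7*. By this rule, 49 of the 41818 genes in the count table were members, with 19 ligands, 10 frizzled receptors, 2 LRP coreceptors, 2 ROR receptors, 4 R-spondins, 4 SFRPs, 4 DKKs, *WIF1* and 3 genes of the nuclear response. The RNA came from fixed, archived tissue of 16 tumors, and normal tissue was not analysed here. The types are those of the label for molecular identity: fibrosarcoma (FS, n = 4, dogs of 9 to 13 years), peripheral nerve sheath tumor (PNST, n = 6, dogs of 8 to 13 years) and perivascular wall tumor (PWT, n = 6, dogs of 2 to 14 years). The tumors came from dogs of several breeds and from several sites, and the labels name no treatment. Tumors are named here by their labels, with S1-02, S1-11, S1-12 and S2-06 as the FS. S1-10 was a PWT and S2-08 an FS by histology, and the study moved both on the basis of gene expression in these same libraries, so the groups partly rest on the values compared. S1-04 and S1-05, both PNST, have identical labels and may come from the same dog.

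WNT proteins are lipid-modified secreted ligands that bind frizzled receptors on the cell surface. In the canonical pathway, a ligand joins a frizzled receptor with *LRP5* or *LRP6*, β-catenin is spared from degradation, and it enters the nucleus to act with transcription factors of the TCF/LEF family. *AXIN2* is a target of this response and feeds back to limit it. Other WNT ligands signal without β-catenin, through receptors such as *ROR1* and *ROR2*, and steer cell polarity and movement. In connective tissue, WNT signals direct the fate of fibroblasts, bone and skin appendages, and several secreted proteins keep them in check by binding the ligands or the coreceptors.

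Between 507728 and 4311876 counts per tumor fell on genes, and S1-12, an FS, had the lowest total. Of the tumors, 9 have the prefix S1 in their names and 7 the prefix S2, which may mark the sequencing groups, and the S1 tumors were 3 of 4 FS, 5 of 6 PNST and 1 of 6 PWT. Levels are given as CPM, in which each tumor's counts are scaled to a common total with factors from the trimmed mean of M values (TMM). As levels of different genes were not corrected for gene length, they are compared only between tumors. All the tumors expressed mesenchymal genes, with a summed level of 8 such genes between 10390 and 104600 CPM. Of 10 Schwann cell markers, 5 were tested and 0 were called in any type, and *FOXD3* had 0 counts in every PNST. Summed over the 10 genes, levels lay between 170 and 557 CPM in PNST, 130 and 184 CPM in FS and 139 and 287 CPM in PWT. These are tissue samples, in which fewer cells of a type and less RNA per cell cannot be told apart.

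A gene was tested when it had at least 10 counts in at least 4 tumors, which 15408 genes and 30 of the 49 members did. Genes were called at a Benjamini-Hochberg adjusted p-value under 0.05 over all genes tested, with an absolute log2 fold change above 1, in edgeR's quasi-likelihood test of each type against both other types. In FS, 6 of the 30 members tested were higher (*WIF1*, *LEF1*, *WNT5B*, *DKK1*, *AXIN2* and *SFRP4*) and 0 were lower, while 5.78% of all genes tested were called higher and 3.68% lower. Of the 6, 3 encode secreted inhibitors, 2 belong to the nuclear response and 1 is a ligand. In PNST, 0 members and 0% of all genes were called, and in PWT 0 members and 2.12% of all genes. An alternative chosen after seeing the data left out both S1-11 and S1-12, the FS highest in *WIF1* and *AXIN2*. With the 2 FS left, 0 of the 29 members then tested were called in FS, while 669 of all 15200 genes then tested were. *WIF1* was not tested in that alternative. The heatmap of the members by tumor shows these differences beside the spread within each type.

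**Figure D1:**
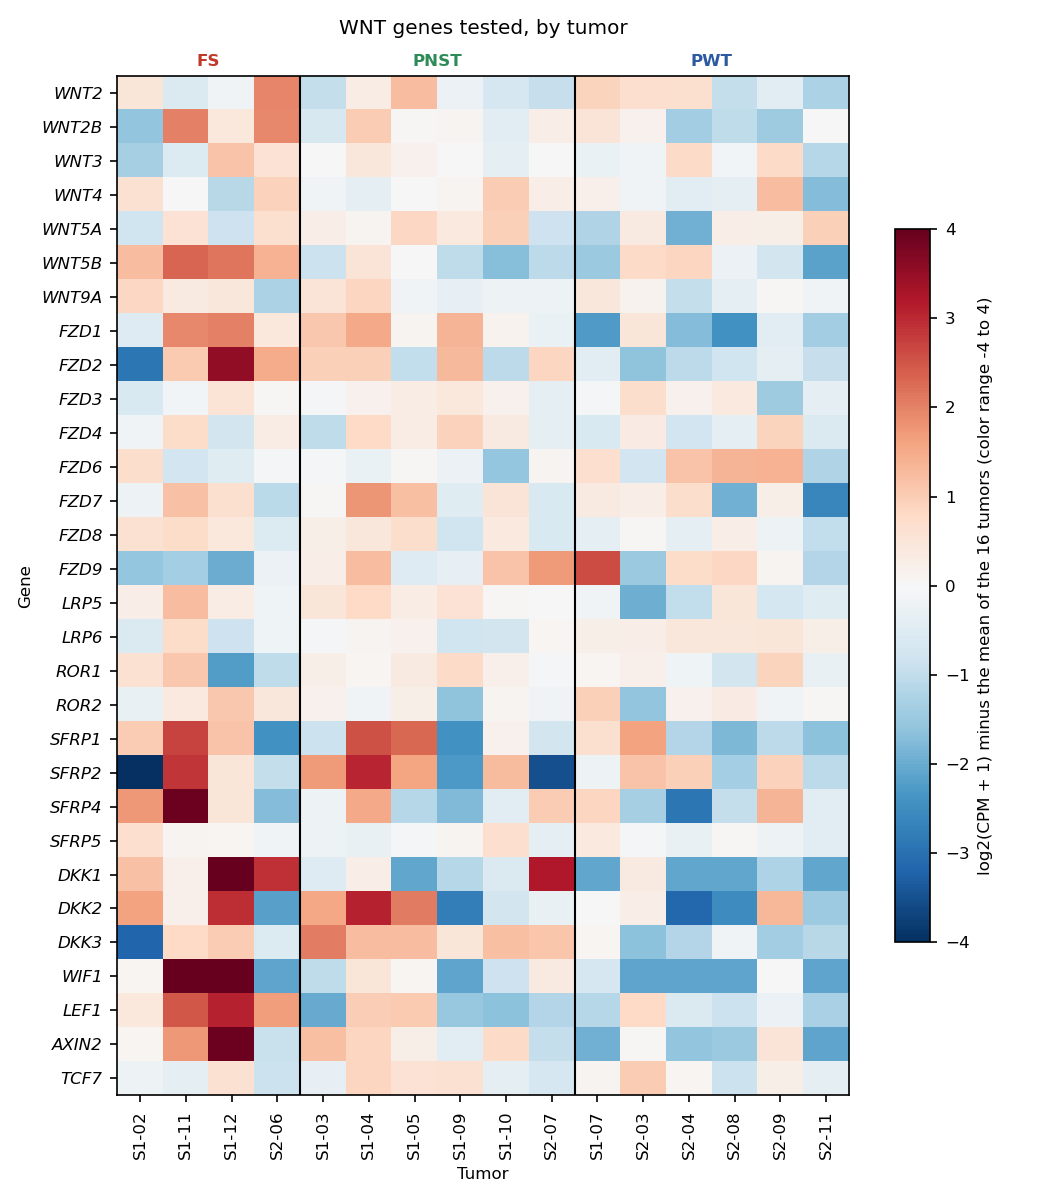
Color gives log2(CPM + 1) minus the mean of the 16 tumors for the 30 WNT genes tested (rows) in each tumor (columns, grouped as FS, PNST and PWT and separated by lines). The deepest reds in FS lie in S1-11 and S1-12, where *WIF1* was at 324 and 1039 CPM, and *SFRP2* and *DKK3* were low in S1-02.

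Of the 19 WNT ligands, 7 passed the filter, and 12 had at most 83 counts in all tumors together. The 7 were *WNT2*, *WNT2B*, *WNT3*, *WNT4*, *WNT5A*, *WNT5B* and *WNT9A*. *WNT7A* had 1 count and *WNT3A* 3 counts over the whole series, and *WNT1*, *WNT6*, *WNT8B*, *WNT9B*, *WNT10A* and *WNT16* had 7 to 15 counts each, which is too few to compare tumor types at this depth. Among the ligands not tested, *WNT11* reached 17 counts in a tumor, and the others at most 7. The most abundantly counted ligand was *WNT2B*, a canonical ligand, with 1027 counts. Its levels in FS were 7.17 CPM in S1-02, 97.0 CPM in S1-11, 31.3 CPM in S1-12 and 91.7 CPM in S2-06. In PNST, *WNT2B* lay between 14.8 and 48.4 CPM (median 24.6), and in PWT between 8.18 and 34.2 CPM (median 17.1). The 2 highest tumors were FS and so was the lowest, and the difference from the other tumors (log2 fold change 1.33 ± 0.47 SE) was not called (adjusted p = 0.0777).

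*WNT5B*, which signals mainly without β-catenin, was the only ligand called in any comparison. It was at 9.32 CPM in S1-02, 21.4 CPM in S1-11, 18.4 CPM in S1-12 and 10.45 CPM in S2-06, from 10 to 39 counts per FS. In PNST it lay between 0.362 and 5.34 CPM (median 1.31), and in PWT between 0 and 6.97 CPM (median 2.18). Each FS thus lay above each of the other tumors, and *WNT5B* was the only 1 of the 30 members tested for which this held, against 1.56% of all genes tested. The log2 fold change in FS against the other tumors was 2.51 ± 0.59 SE (adjusted p = 0.0103). The call was lost without S1-11 (2.25, adjusted p = 0.054) and with tumors grouped by histology (2.25, adjusted p = 0.0728), while it was kept with the prefix as a term (2.60, adjusted p = 0.0131). Its close relative *WNT5A* overlapped between the types, with means of 25.0 ± 13.7 CPM in FS (SD, n = 4), 31.4 ± 12.3 CPM in PNST (SD, n = 6) and 24.7 ± 14.9 CPM in PWT (SD, n = 6), and its log2 fold change in FS was -0.15 ± 0.43 SE (adjusted p = 0.874). For *WNT2*, *WNT3*, *WNT4* and *WNT9A*, differences in FS lay between 0.09 and 0.79 on the log2 scale, and adjusted p-values were 0.357 or higher.

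The plot of members by type shows these genes next to the inhibitors and receptors described next.

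**Figure D2:**
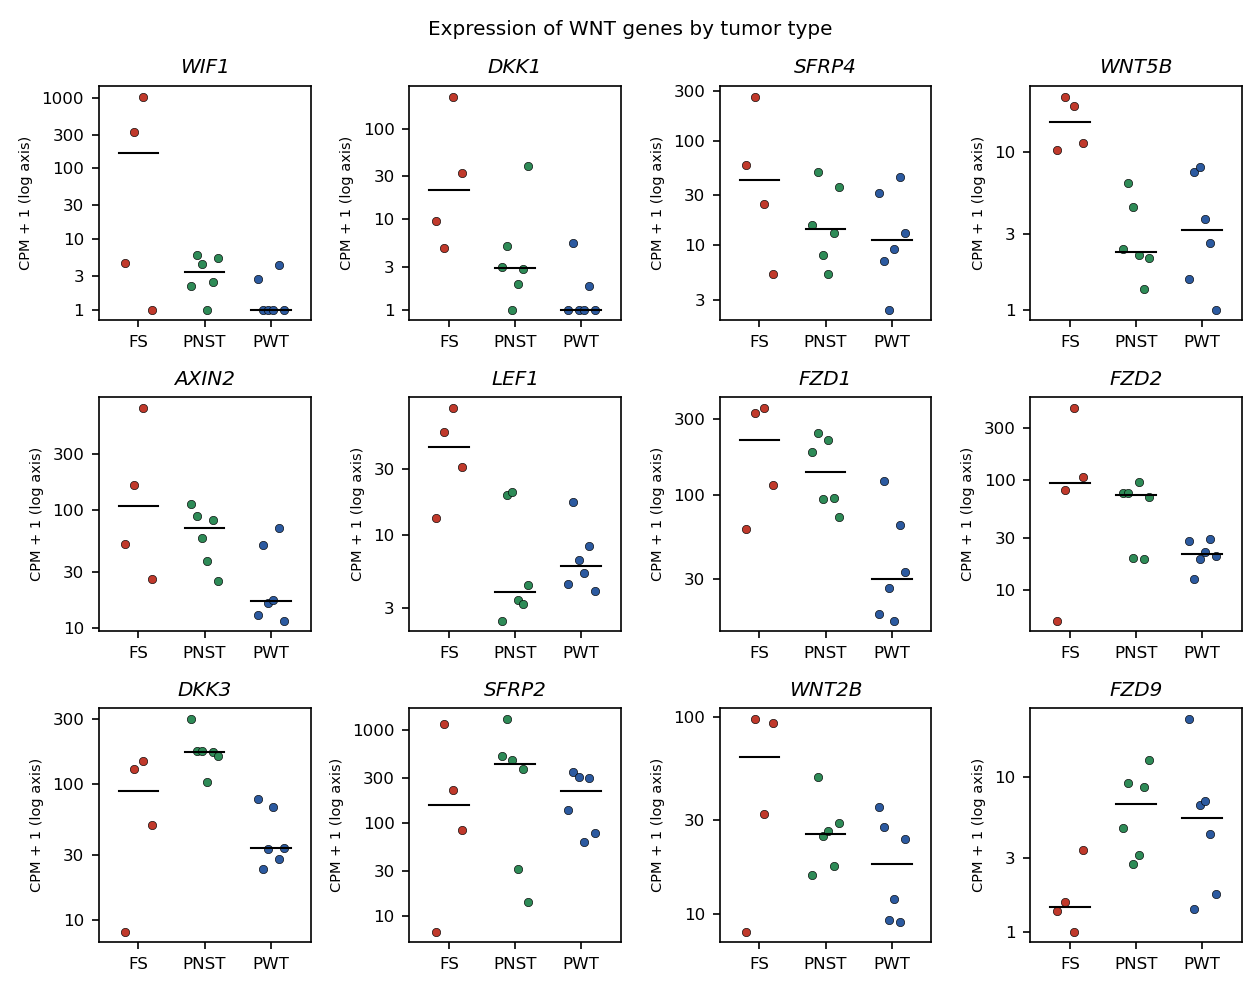
Each point is a tumor, at its CPM + 1 on a log axis, grouped as FS (n = 4), PNST (n = 6) and PWT (n = 6), and each line is the median of the group. Only *WNT5B* has the 4 FS above all the other tumors, while *WIF1* has 2 FS at 324 and 1039 CPM and 2 at 0 and 3.585 CPM.

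Of the 10 frizzled receptors, 8 were tested. *FZD5* had 6 counts over all tumors and *FZD10* 94. *FZD10* was at 11.5 CPM in S1-02, 4.94 CPM in S1-11, 5.53 CPM in S1-12 and 5.23 CPM in S2-06, against 0 to 6.60 CPM in PNST and 0 to 2.79 CPM in PWT, but these FS values stood for 3 to 32 counts. *FZD1*, the frizzled gene with the most counts (4414), was at 60.6 CPM in S1-02, 326 CPM in S1-11, 354 CPM in S1-12 and 115 CPM in S2-06. It lay between 71.7 and 246 CPM in PNST (median 140) and between 15.3 and 121 CPM in PWT (median 28.6). The 4 lowest *FZD1* levels were in PWT and the fifth in S1-02, so that the ranges overlapped. In PWT against the other tumors, the log2 fold change of *FZD1* was -1.93 ± 0.51 SE and just missed the threshold (adjusted p = 0.0504), and in FS against PWT it was called (2.198 ± 0.587 SE, adjusted p = 0.0209).

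*FZD2*, a close relative of *FZD1*, was more uneven. FS levels were 4.30 CPM in S1-02, 80.6 CPM in S1-11, 457 CPM in S1-12 and 107 CPM in S2-06, and ranged over both other types. In PNST, *FZD2* lay between 18.1 and 95.0 CPM (median 72.4), and in PWT between 11.7 and 28.6 CPM (median 20.4). The difference was called in FS against PWT (2.91 ± 0.74 SE, adjusted p = 0.0162), and not in FS against the other tumors (1.98 ± 0.65 SE, adjusted p = 0.0596). *FZD9* went the other way, at 0.359 CPM in S1-02, 0.548 CPM in S1-11, 0 CPM in S1-12 and 2.38 CPM in S2-06, from 0 to 5 counts. PNST had 1.75 to 11.8 CPM (median 5.65) and PWT 0.404 to 22.8 CPM (median 4.42), and the log2 fold change in FS was -2.62 ± 0.95 SE (adjusted p = 0.085). *FZD6* had its 3 highest levels in PWT (75.2 to 89.9 CPM in S2-04, S2-08 and S2-09), but 2 other PWT were at 14.2 and 19.4 CPM, and the log2 fold change in PWT was 0.90 ± 0.37 SE (adjusted p = 0.162). For *FZD3*, *FZD4*, *FZD7* and *FZD8*, log2 fold changes in the 3 comparisons with the other tumors lay between -0.66 and 0.59, and 0 were called.

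Both LRP coreceptors were found in every tumor. *LRP6*, with 6452 counts, was at 131 CPM in S1-02, 325 CPM in S1-11, 109 CPM in S1-12 and 175 CPM in S2-06. It lay between 111 and 221 CPM in PNST (median 196) and between 229 and 275 CPM in PWT (median 251), so that every PWT was above every PNST. *LRP6* was 1 of the 30 members with PWT above PNST in this way, against 1.36% of all genes tested, but the difference was not called (log2 fold change in PNST against PWT -0.52 ± 0.26 SE, adjusted p = 0.281). *LRP5* instead had its lowest mean in PWT, with means of 59.9 ± 27.4 CPM in FS (SD, n = 4), 55.7 ± 12.1 CPM in PNST (SD, n = 6) and 30.7 ± 17.0 CPM in PWT (SD, n = 6). Its log2 fold change in PWT was -0.90 ± 0.31 SE (adjusted p = 0.103). *ROR2*, a receptor tyrosine kinase that binds *WNT5A*, was at 39.1, 63.6, 103 and 66.0 CPM in S1-02, S1-11, S1-12 and S2-06, against 15.1 to 56.7 CPM in PNST (median 47.9) and 15.4 to 94.6 CPM in PWT (median 52.2). It was not called (FS against the other tumors 0.46 ± 0.36 SE, adjusted p = 0.455), nor was *ROR1* (-0.03 ± 0.40 SE, adjusted p = 0.974).

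The 4 R-spondins, secreted proteins that amplify WNT signals through LGR receptors, all fell under the filter. *RSPO3* had the most counts (78) and was at 6.10 CPM in S1-02, 3.84 CPM in S1-11, 0 CPM in S1-12 and 0.475 CPM in S2-06, against 0 to 3.70 CPM in PNST and 0.570 to 12.5 CPM in PWT. Its highest levels were in the PWT S2-04 and S2-08, from 9 and 16 counts. *RSPO2* had 21 counts, *RSPO1* 10 and *RSPO4* 1, and 7 of the 10 *RSPO1* counts came from S1-11.

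Among the secreted inhibitors, the SFRPs bind WNT ligands through a domain like that of the frizzled receptors, and all 4 were tested. *SFRP2* had more counts (12288) than any other member. Its levels in FS were 5.74 CPM in S1-02, 1148 CPM in S1-11, 223 CPM in S1-12 and 81.7 CPM in S2-06. It lay between 12.9 and 1309 CPM in PNST (median 428) and between 60.7 and 350 CPM in PWT (median 217). FS and PNST each spanned nearly the whole range of *SFRP2*, and the log2 fold change in FS was 0.14 ± 0.95 SE (adjusted p = 0.95). *SFRP4* was called higher in FS, at 57.4 CPM in S1-02, 264 CPM in S1-11, 23.9 CPM in S1-12 and 4.28 CPM in S2-06. PNST lay between 4.22 and 49.3 CPM (median 13.2) and PWT between 1.39 and 44.2 CPM (median 10.1). S1-02 and S1-11 were above all the other tumors, and S1-12 and S2-06 were within their range. *SFRP4* had a log2 fold change of 2.23 ± 0.71 SE at an adjusted p of 0.0497, and leaving out a single tumor ended the call for 11 of the 16 tumors, with the smallest value without S1-11 (0.62, adjusted p = 0.69). The 11 were S1-02, S1-03, S1-05, S1-07, S1-09, S1-10, S1-11, S2-03, S2-04, S2-08 and S2-11. *SFRP1* was also uneven within each type (0 to 34.0 CPM in FS, 0 to 30.8 CPM in PNST and 0.547 to 15.4 CPM in PWT), while *SFRP5* lay between 7.48 and 17.4 CPM in all tumors, and neither was called.

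Among the DKK proteins, *DKK1* is the best known, and it binds LRP coreceptors. *DKK1* was at 8.605 CPM in S1-02, 3.84 CPM in S1-11, 227 CPM in S1-12 and 31.4 CPM in S2-06. In PNST it lay between 0 and 38.1 CPM (median 1.90) and in PWT between 0 and 4.44 CPM (median 0), with 0 counts in 4 of the 6 PWT. Only S1-12 was above every other tumor, since the PNST S2-07 reached 38.1 CPM. In FS the log2 fold change was 3.84 ± 1.035 SE (adjusted p = 0.023), and 1.71 (adjusted p = 0.374) without S1-12. DESeq2 gave 3.98 (adjusted p = 0.0784), and the fit without S1-10 and S2-08 gave 3.63 (adjusted p = 0.0531).

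*DKK3*, a divergent member of the family, was highest in PNST. Its levels were 102 to 301 CPM in PNST (median 171) and 22.6 to 76.3 CPM in PWT (median 32.5), so that every PNST was above every PWT. It was 1 of the 30 members with PNST above PWT in this way, against 1.34% of all genes tested. In FS, *DKK3* was at 7.17 CPM in S1-02, 127 CPM in S1-11, 147 CPM in S1-12 and 48.9 CPM in S2-06, which spanned both other types. The log2 fold change was 2.06 ± 0.51 SE in PNST against PWT (adjusted p = 0.0656), 1.63 ± 0.46 SE in PNST against the other tumors (adjusted p = 0.166) and -1.71 ± 0.52 SE in PWT (adjusted p = 0.0746), and 0 of these were called. As 5 of 6 PNST have the prefix S1 and 5 of 6 PWT the prefix S2, the prefix was added to the model, and the difference between PNST and PWT was then 1.65 ± 0.56 SE (adjusted p = 0.531). Within S1, *DKK3* was at 102 to 301 CPM in PNST and 76.3 CPM in the only PWT, and within S2 at 158 CPM in the only PNST and 22.6 to 66.2 CPM in PWT. *DKK2* ranged from 0 to 74.2 CPM over the tumors and was not called in any comparison, and *DKK4* had 12 counts.

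*WIF1*, an inhibitor that binds WNT ligands outside the cell, had the largest difference of all the members. It was at 3.585 CPM (10 counts) in S1-02, 324 CPM (591 counts) in S1-11, 1039 CPM (564 counts) in S1-12 and 0 CPM in S2-06. In PNST it lay between 0 and 5.03 CPM (median 2.48) and in PWT between 0 and 3.27 CPM (median 0). *WIF1* was therefore very high in 2 FS, and S1-02 and S2-06 were within the range of the other types. The counts were high in each of the 3 runs of both tumors, at 315 to 338 CPM in S1-11 and 966 to 1102 CPM in S1-12. The log2 fold change in FS against the other tumors was 7.54 ± 1.06 SE (adjusted p = 0.000315). *WIF1* passed the filter through S1-02, S1-04, S1-11 and S1-12 and was not tested where any of these was left out. It was called in the 22 of 30 alternatives in which it was tested, with log2 fold changes of 6.82 to 7.96, a range that holds no value without S1-11 or S1-12.

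*AXIN2* was at 50.55 CPM in S1-02, 163 CPM in S1-11, 748 CPM in S1-12 and 25.2 CPM in S2-06. In PNST it lay between 24.1 and 112 CPM (median 69.5), and in PWT between 10.5 and 69.5 CPM (median 15.9). The same 2 FS that were high in *WIF1* were above every other tumor in *AXIN2*, and S1-02 and S2-06 were within the range of PNST and PWT. In FS the log2 fold change was 2.33 ± 0.65 SE (adjusted p = 0.0262), and it fell to 0.72 (adjusted p = 0.524) without S1-12 and to -0.36 (adjusted p = 0.836) without both S1-11 and S1-12. With the prefix as a term it was 1.79 ± 0.68 SE (adjusted p = 0.1). *TCF7*, a transcription factor of the TCF/LEF family, was at 21.2, 18.6, 38.7 and 13.3 CPM in S1-02, S1-11, S1-12 and S2-06, at 15.1 to 45.2 CPM in PNST (median 28.5) and at 13.1 to 51.3 CPM in PWT (median 26.6). The types overlapped over nearly the whole range of *TCF7*, and its log2 fold change in FS was -0.36 ± 0.37 SE (adjusted p = 0.587).

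*LEF1*, which encodes a transcription factor that acts with β-catenin and is active in hair follicles and T cells, was called with each single tumor left out. Its levels were 12.2 CPM in S1-02, 54.3 CPM in S1-11, 81.0 CPM in S1-12 and 29.9 CPM in S2-06. PNST lay between 1.42 and 19.3 CPM (median 2.89) and PWT between 2.99 and 16.2 CPM (median 4.97), so 3 FS were above all the other tumors and S1-02 was not. The log2 fold change in FS was 2.56 ± 0.58 SE (adjusted p = 0.00788). It was 1.505 (adjusted p = 0.268) without both S1-11 and S1-12, 2.21 (adjusted p = 0.0792) with tumors grouped by histology and 2.63 (adjusted p = 0.0922) among S1 tumors only. Outside FS, *LEF1* was highest in S1-05 (19.3 CPM), S1-04 (18.2 CPM) and S2-03 (16.2 CPM). The same 3 tumors had the highest sums of 12 keratinocyte genes outside FS, at 1666, 1214 and 1341 CPM, while the other 9 lay between 9.76 and 102 CPM. They also had the highest sums of 9 T cell genes outside FS, at 102, 85.5 and 115.5 CPM, while the other 9 lay between 23.7 and 52.3 CPM. In FS the keratinocyte sum was 1713 CPM in S1-02, 115 CPM in S1-11, 1101 CPM in S1-12 and 26.6 CPM in S2-06, and the T cell sum 102, 10.4, 55.2 and 36.6 CPM. Each gene of both lists had counts in each type, 0 of the 12 keratinocyte genes and 0 of the 7 T cell genes tested were called in any type, and their part in the levels of *LEF1* was not tested.

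Over the 30 members tested, the median log2 fold change in FS against the other tumors was 0.35, and it was 0.00 over all genes tested. Values were positive for 21 of the 30 members and for 7739 of all 15408 genes. Besides the 6 called, *FZD2*, *WNT2B* and *FZD9* had unadjusted p-values under 0.05, which made 30% of the members and 25.4% of all genes. Against PNST, 3 members were called higher in FS (*WIF1* 7.06 ± 1.35 SE, *WNT5B* 2.73 ± 0.71 SE and *LEF1* 2.48 ± 0.71 SE), while 4.15% of all genes were. Against PWT, 7 were called higher (*WIF1* 8.66 ± 1.57 SE, *DKK1* 5.73 ± 1.40 SE, *AXIN2* 3.06 ± 0.77 SE, *FZD2*, *LEF1* 2.64 ± 0.73 SE, *WNT5B* 2.28 ± 0.72 SE and *FZD1*), while 6.15% of all genes were. Both comparisons share the 4 FS. Without S1-11, 0 members were called against PNST and 3 against PWT, while 793 and 1062 of all 15227 genes then tested were. Without S1-12, 1 was called against PNST and 0 against PWT, while 1057 and 1759 of all 15377 genes then tested were. Calls against PNST fell to 1 without S1-03, S1-09 or S1-10, where 808, 831 and 656 of all genes were called. With the prefix as a term, 1 member (*DKK1*) was called against PWT, while 895 of all genes were. The plot of fold changes shows all 30 members in the 3 comparisons with the other tumors.

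**Figure D3:**
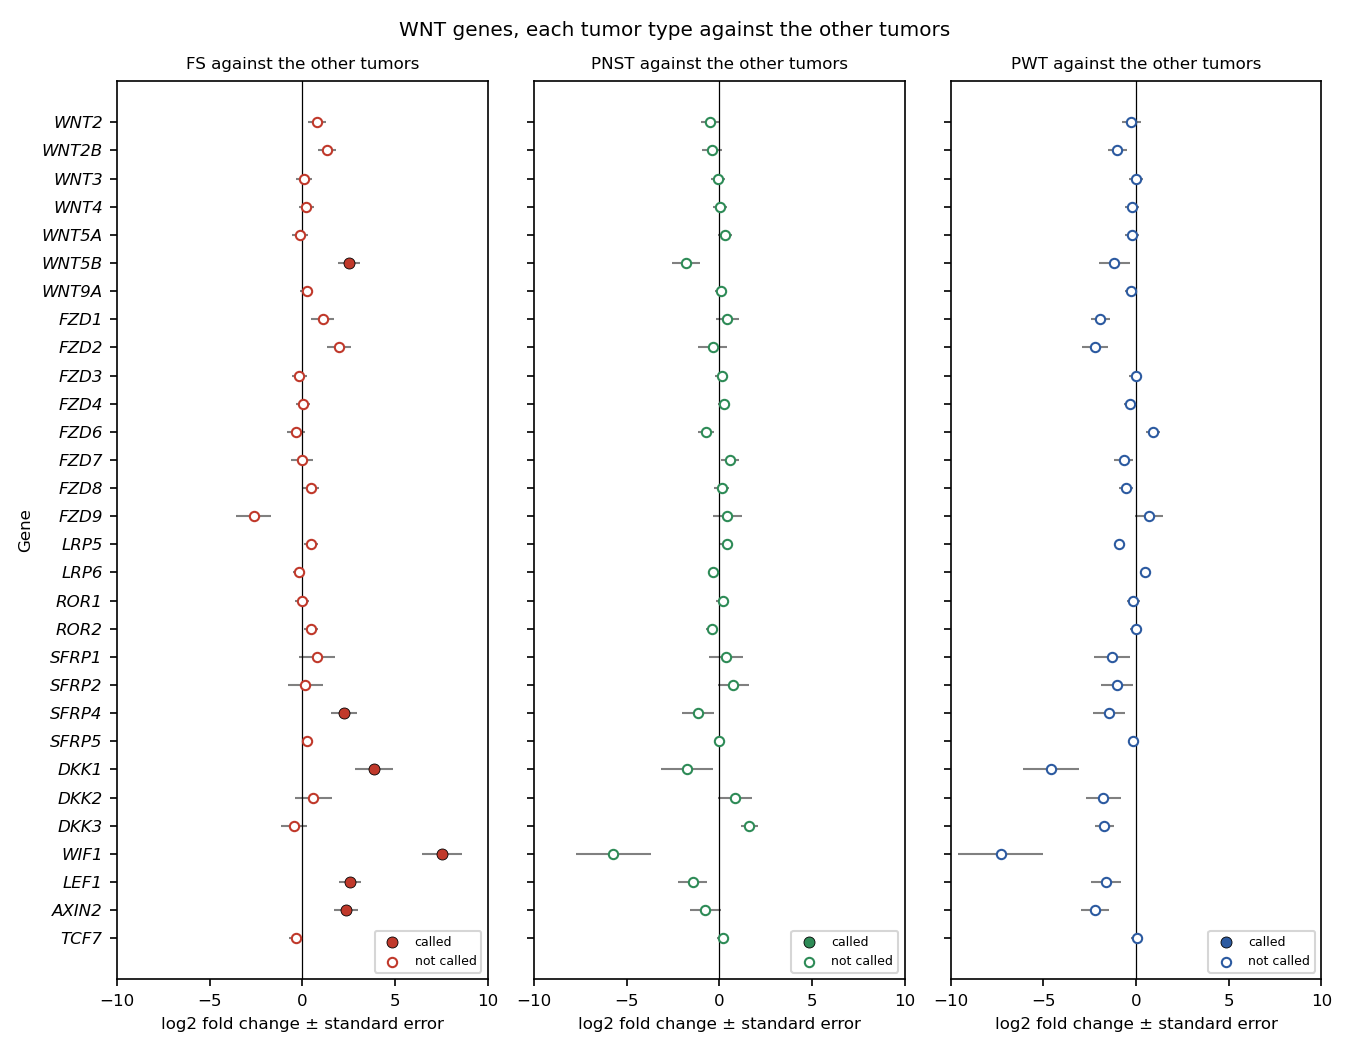
Log2 fold change with its standard error (x axis) of the 30 WNT genes tested (y axis) in FS, PNST and PWT, each against the other tumors. Filled points were called, and these are the 6 genes higher in FS, from *SFRP4* at 2.23 to *WIF1* at 7.54.

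In S1-11 and S1-12, the summed level of 12 smooth muscle and pericyte genes was 1806 and 1114 CPM, above all the other tumors (271.5 to 621 CPM). That sum was 343 CPM in S1-02 and 513 CPM in S2-06. It lay between 271.5 and 613 CPM in PNST and between 307 and 621 CPM in PWT, with each of the 12 genes having counts in each type. *ACTA2*, *CNN1* and *MCAM* of this list were called higher in FS, as were *COL1A1*, *COL3A1* and *LUM* of 8 mesenchymal genes and *ADGRE1* and *C1QB* of 10 macrophage genes. Some genes of these lists had lower means in FS, and 0 were called lower. Means in FS, PNST and PWT were 1252, 3153 and 3391 CPM for *DCN* and 2065, 3048 and 2956 CPM for *VIM*. For *RGS5* of the smooth muscle and pericyte list they were 87.3, 101.5 and 128 CPM. The macrophage sum was highest in S1-02 (1519 CPM) and lowest in S1-12 (195 CPM), and the sum of 9 endothelial genes lay between 241 and 599 CPM in FS and between 137 and 632 CPM in the other tumors. The part of these cell type genes in the differences of the WNT genes was not tested. Without S1-11, 3 members were called in FS against the other tumors (*AXIN2*, *DKK1* and *LEF1*), and without S1-12, 3 (*LEF1*, *SFRP4* and *WNT5B*). Over all genes, 911 of 15227 were called without S1-11 and 1299 of 15377 without S1-12. With tumors grouped by histology, 1 member was called (*WIF1*), while 205 of all 15408 genes were.

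**Figure D4:**
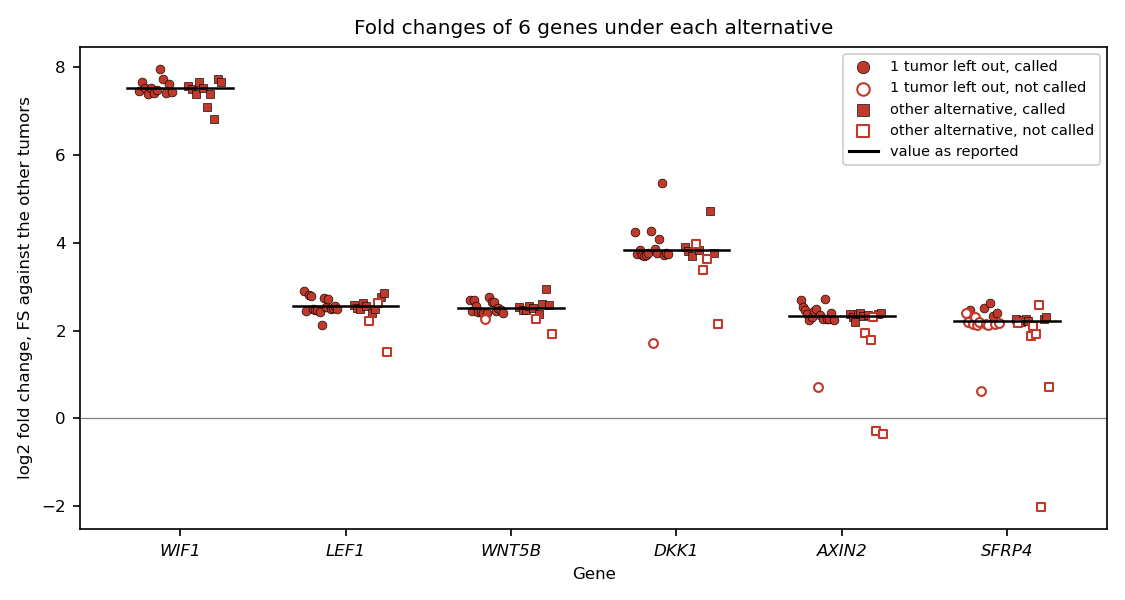
Log2 fold change in FS against the other tumors (y axis) of the 6 WNT genes called, under each alternative in which the gene was tested, with circles for 1 tumor left out, squares for the other alternatives and filled symbols where the gene was called. *AXIN2* reaches -0.36 and *SFRP4* -2.03, and *WIF1* has no symbol for the alternatives without S1-11 or S1-12 or with S2 tumors only, in which it was not tested.

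In PWT, 26 of the 30 members had a negative log2 fold change against the other tumors, with a median of -0.60, while the median over all genes tested was -0.08. Positive values were found for 4 of the 30 members and for 6916 of all 15408 genes tested. At an unadjusted p-value under 0.05, 7 members were lower (*FZD1*, *FZD2*, *LRP5*, *DKK1*, *DKK3*, *WIF1* and *AXIN2*) and 2 were higher (*FZD6* and *LRP6*), together 30% of the members, against 22.4% of all genes. By DESeq2, 6 of these were called (*AXIN2*, *DKK1*, *DKK3*, *FZD1*, *FZD2* and *WIF1*), and 875 of the 41818 genes in the table, while edgeR called 0 members. Of the 41818 genes, 36420 had any count, and many of those had few. The DESeq2 counts over the table, here and below, are therefore not shares of the genes that could be called. With edgeR, 3 were called without S1-02 (*DKK3*, *FZD1* and *FZD2*), and 1 without S2-03, S2-06 or S2-07 (*FZD1*) or without S2-08 (*LRP5*). Over all genes, 256 of 15020 were called in PWT without S1-02 and 148 of 15039 without S2-03. The counts were 415 of 15202 without S2-06, 487 of 15365 without S2-07 and 246 of 15329 without S2-08. Type and prefix largely overlap here, since 5 of 6 PWT are S2 tumors, against 1 of 4 FS and 1 of 6 PNST. Once the model included the prefix, 0 of all genes tested were called in PWT, where the main fit called 327. In S2 tumors only, *AXIN2* in PWT was at 0.41, against -2.22 in the main fit. The other members named above kept their direction in every alternative in which they were tested. In PNST, 3 members had an unadjusted p-value under 0.05 (*DKK3* higher, *WNT5B* and *WIF1* lower), which made 10% of the members and 15.7% of all genes. The other tumors include the 4 FS, for PNST as for PWT. In PNST against PWT, *WIF1* was at 1.60 ± 1.74 SE (adjusted p = 0.63) and *WNT5B* at -0.46 ± 0.70 SE (adjusted p = 0.735). *AXIN2* was at 1.20 ± 0.69 SE (adjusted p = 0.341) and *DKK1* at 2.62 ± 1.36 SE (adjusted p = 0.291) in that comparison. DESeq2 called 1 of the 49 members in PNST (*DKK3*) and 291 of the 41818 genes in the table, and the edgeR median was 0.06 over members and -0.06 over all genes. Between PNST and PWT, 0 members were called by edgeR, while 0.169% of all genes were. Of the members, 5 had an unadjusted p-value under 0.05 in that comparison (*FZD1*, *FZD2*, *LRP5* and *DKK3* higher and *FZD6* lower in PNST), which made 16.7% of the members and 19.6% of all genes. DESeq2 called 2 members between PNST and PWT (*DKK3* and *FZD1*) and 517 of the 41818 genes, and edgeR called 1 (*DKK3*) without S1-02 and without both S1-11 and S1-12. Over all genes, edgeR called 49 of 15020 without S1-02 and 259 of 15200 without both S1-11 and S1-12.

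Of 65 other genes of the pathway in the count table, 57 were tested. In FS, 10 were called higher and 3 lower, beside 5.78% of all genes called higher and 3.68% lower, and the median log2 fold change of the 57 was 0.09. In PNST, 0 were called, with 13 at an unadjusted p-value under 0.05 (22.8%, and 15.7% of all genes), and in PWT 0 were called, with 24 (42.1%, and 22.4% of all genes). DESeq2 called 2 in PNST and 9 in PWT, of 291 and 875 genes in all. *PTK7*, a coreceptor without kinase activity that acts in planar cell polarity, was the most significant. It was at 44.1 CPM in S1-02, 201 CPM in S1-11, 142 CPM in S1-12 and 66.5 CPM in S2-06, against 5.435 to 24.8 CPM in PNST (median 13.6) and 1.71 to 11.3 CPM in PWT (median 7.57). All 4 FS were above all the other tumors, and the log2 fold change was 3.36 ± 0.47 SE (adjusted p = 0.000287). *GPC4*, a glypican that carries heparan sulfate on the cell surface, also had every FS above the rest, at 38.0, 43.3, 214 and 29.0 CPM in S1-02, S1-11, S1-12 and S2-06, against 3.62 to 22.3 CPM in the other tumors (2.82 ± 0.47 SE, adjusted p = 0.00117). *RYK*, a receptor for *WNT5A*, was the third of the 57 genes with every FS above the other tumors, against 1.56% of all genes tested, but its change was under the fold threshold (0.82 ± 0.19 SE, adjusted p = 0.011). The related *GPC6* was high in the FS S1-02 (60.2 CPM), S1-11 (22.5 CPM) and S2-06 (117 CPM) and not in S1-12 (1.84 CPM), with at most 13.1 CPM in the other tumors.

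*NKD1* and *APCDD1*, which restrain WNT signals and are induced by them, resembled *AXIN2* in which FS were high. *NKD1* was at 3.94 CPM in S1-02, 91.0 CPM in S1-11, 481 CPM in S1-12 and 11.4 CPM in S2-06, against 0.547 to 17.3 CPM in the other tumors, with a log2 fold change of 4.28 ± 0.73 SE (adjusted p = 0.0013). *APCDD1* was at 22.95 CPM in S1-02, 143 CPM in S1-11, 626 CPM in S1-12 and 11.9 CPM in S2-06, against 0 to 23.4 CPM in the other tumors (4.83 ± 0.86 SE, adjusted p = 0.00172). In both genes, S1-11 and S1-12 were above all the other tumors and S1-02 and S2-06 were not. Of the 5 tested genes listed as WNT targets, *NKD1* and *TNFRSF19* (3.335 ± 1.005 SE, adjusted p = 0.0394) were called higher in FS. The other listed targets had negative values that were not called, at -1.18 for *SP5* (adjusted p = 0.344), -0.94 for *MYC* (adjusted p = 0.129) and -0.65 for *CCND1* (adjusted p = 0.452), and the median of the 5 was -0.65. Outside FS, *APCDD1* was highest in S1-05 (23.4 CPM), S1-04 (20.4 CPM) and S2-03 (17.8 CPM), the 3 tumors in which *LEF1* and the keratinocyte sum were also highest. *CAMK2A*, a calcium-dependent kinase, was high in S1-11 (81.7 CPM) and S1-02 (28.7 CPM) and at 5.525 and 1.90 CPM in S1-12 and S2-06, against 0.302 to 7.86 CPM in the other tumors.

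The remaining TCF/LEF genes moved in opposite directions. *TCF7L1*, often a repressor of WNT targets, was at 13.6, 39.5, 35.0 and 31.8 CPM in S1-02, S1-11, S1-12 and S2-06, against 1.496 to 15.7 CPM in the other tumors (1.76 ± 0.36 SE, adjusted p = 0.00476). *TCF7L2* was lower in every FS than in every other tumor, at 27.25, 81.7, 44.2 and 49.9 CPM, against 116 to 226 CPM in PNST (median 172) and 95.3 to 128 CPM in PWT (median 111.5), and its log2 fold change was -1.49 ± 0.32 SE (adjusted p = 0.00573). It was 1 of the 57 genes with FS below all the other tumors, against 1.64% of all genes tested. *CTNNB1*, which encodes β-catenin, was not called in FS (-0.78 ± 0.39 SE, adjusted p = 0.213). Without both S1-11 and S1-12, 5 of the 56 other pathway genes tested were called in FS, beside 669 of all 15200 genes. *PTK7*, *GPC6* and *TCF7L2* were among the 5. With tumors grouped by histology 5 were called (*APCDD1*, *CAMK2A*, *GPC4*, *NKD1* and *PTK7*), beside 205 of all 15408 genes.

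**Figure D5:**
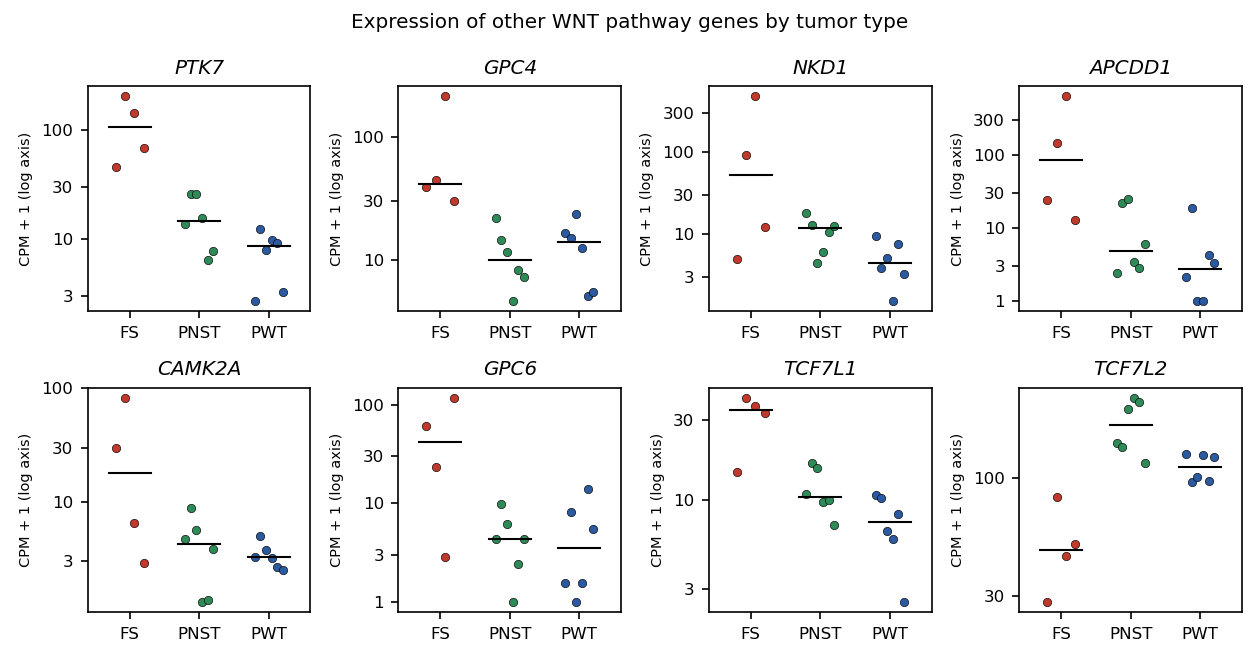
Each point is a tumor, at its CPM + 1 on a log axis, grouped as FS (n = 4), PNST (n = 6) and PWT (n = 6), with a line at the median of the group, for the 8 other pathway genes with the smallest adjusted p-values in FS. *PTK7* and *GPC4* have all 4 FS above the other tumors and *TCF7L2* has all 4 below, while *NKD1* and *APCDD1* are highest in S1-12 at 481 and 626 CPM.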

How the data were processed

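RNA-seq libraries of 16 canine tumors were sequenced on an Ion Proton, and the authors aligned reads to the ROS-canfam-01 genome with STAR and counted them per gene with htseq-count. The deposited values are raw counts. Whether counting used strand is not given in the sources used here, so counts of overlapping genes are uncertain. The 3 runs of each S1 tumor were summed, and each S2 tumor had 1 run. Counts were scaled by TMM and tested with edgeR 4.0.16 (R 4.3.3, limma 3.58.1), after tests on simulated data. A 2-group fit compared each type with both others, and a 3-group fit compared pairs of types. DESeq2 1.42.0 was an alternative. SE is the log2 fold change divided by the square root of F. Totals were 507728 to 4311876 counts per tumor. The p-values measure the spread between tumors, of which S1-04 and S1-05 may share a dog. The members, pathway genes and marker lists were chosen with earlier results of these data known. Members called in any comparison, the most counted member of each role, the 3 largest differences of each type, and *AXIN2*, *LEF1* and *TCF7* are named with values, as are up to 8 other pathway genes by adjusted p-value. Genes named outside this rule, such as *FZD10*, *WNT5A*, *LRP5*, *FZD6*, *ROR1*, *RYK* and *CTNNB1*, were chosen after their values were seen. All 49 members were found in RefSeq's gene table of the assembly UU_Cfam_GSD_1.0, which differs from the authors' build, so positions, lengths and sequences are not given.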

Additional observations from a re-analysis of the deposited data

Results flagged for a closer look

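Within 48 groups formed by 16 genes in 3 tumor types, a tumor stood apart from the others of its type by Dixon's criterion in 8. The criterion's rate of about 1 in 20 holds for normally distributed values, and *DKK1*, for example, had 0 counts in 4 of the 6 PWT. The 16 genes were also named partly for their differences, so the 8 cannot be set against that rate. *DKK1* stood out in all 3 types, with S1-12 among FS at 227 CPM, S2-07 among PNST at 38.1 CPM and S2-03 among PWT at 4.44 CPM. *DKK3* stood out in S1-03, the highest PNST, at 301 CPM, and *LEF1* in S2-03, the highest PWT, at 16.2 CPM. *FZD9* was at 22.8 CPM in S1-07, the highest PWT, and *RSPO3* at 3.70 CPM in S1-03, the highest PNST, from 13 counts. *ROR2* was at 15.1 CPM in S1-09, the lowest PNST.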

How the results depend on the processing

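In FS against the other tumors (6 WNT genes called), 2 were called with at least 10 counts in 8 tumors (23 members tested), 3 with all tumors sampled to 507728 counts (20 tested), 1 with histology groups, 2 in S1 tumors only, 0 in S2 tumors only (1 FS) and 0 without S1-11 and S1-12, an alternative chosen after seeing the data, and leaving out 1 tumor gave 3 to 7. Over all genes, FS had 1272 of 12978 called with at least 10 counts in 8 tumors and 805 of 9490 after sampling. The counts were 825 of 14371 in S1 tumors only and 669 of 15200 without S1-11 and S1-12. With 1 tumor left out, 911 to 1583 genes were called. These counts also stand beside the other pathway genes in FS below. In PNST, DESeq2 called 1 and in PWT 6, against 0 by edgeR. PWT also had 1 with RLE factors, 1 with the stricter filter, 1 after sampling and 0 to 3 with 1 tumor left out. Over all genes, PWT had 356 of 15408 called with RLE factors, 375 of 12978 with the stricter filter and 284 of 9490 after sampling. With 1 tumor left out, 11 to 487 genes were called in PWT. Against PNST, FS had 3 calls, which became 0 with the stricter filter, 0 with histology groups, 1 without S1-10 and S2-08, 1 in S1 only, 0 in S2 only, 0 after sampling, 1 without S1-11 and S1-12 and 0 to 3 with 1 tumor left out. Against PWT, FS had 7, which became 3 with the stricter filter, 0 with histology groups, 1 with the prefix as a term, 0 in S1 only (1 PWT), 1 in S2 only, 0 without S1-11 and S1-12 and 0 to 8 with 1 tumor left out. Between PNST and PWT (0), DESeq2 called 2, and 1 was called after sampling, 1 without S1-11 and S1-12 and 0 to 1 with 1 tumor left out. Over all genes, FS against PNST had 999 calls with the stricter filter, 635 without S1-10 and S2-08 and 522 in S1 only. It had 579 after sampling and 748 without S1-11 and S1-12. FS against PWT had 1576 with the stricter filter, 895 with the prefix as a term and 915 without S1-11 and S1-12. PNST against PWT had 112 after sampling and 259 without S1-11 and S1-12. Of the other pathway genes, FS had 13 calls, 8 with the stricter filter, 5 with histology groups, 2 in S2 only, 8 after sampling, 5 without S1-11 and S1-12 and 9 to 16 with 1 tumor left out. DESeq2 called 2 of them in PNST and 9 in PWT, where edgeR called 0, and PWT had 3 with the stricter filter, 2 after sampling and 0 to 4 with 1 tumor left out. A stricter filter and sampling tested fewer genes, and the cause of the other shifts was not tested.

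The direction turned for 11 values. For *AXIN2* in FS against the other tumors it was -0.29 in S2 tumors only and -0.36 without S1-11 and S1-12, against PNST -0.83 without both and against PWT -0.36 in S2 only, and in PWT 0.41 in S2 only. For *SFRP4* in S2 tumors only it was -2.03 against the other tumors, -2.96 against PNST and -1.72 against PWT. For *DKK1* in PNST it was 0.56 by DESeq2, 0.39 without S1-12 and 0.33 without S1-11 and S1-12, and leaving out 1 tumor gave -3.72 to 0.39. Of the other gene values, 1112 kept direction and call, 100 lost the call and 40 gained it. Over all genes, histology groups gave 205 calls for FS against 1457, the prefix as a term gave 0 for PWT against 327, and DESeq2 gave 291 for PNST against 0, 875 for PWT, and 517 between PNST and PWT against 26. Histology groups also gave 0 calls over all genes for FS against PNST, where the main fit gave 1099. For FS against PWT they gave 5, where the main fit gave 1726. No paired analysis was possible because each tumor carries its own name and no number links tumors of different types. The totals limit genes such as the R-spondins and most ligands, for which a difference was not detectable at this depth.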
